A study of Mus musculus with 6 samples.

Results

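The Hippo pathway, YAP and TEAD genes described here are *Yap1*, *Wwtr1*, *Tead1*, *Tead2*, *Tead3*, *Tead4*, *Lats1*, *Lats2*, *Amotl2* and *Ankrd1*, which are 10 of the 22911 genes that the arrays named. They were taken by symbol, and their probes were found through the RefSeq accession that the array gives for each probe. All 10 had a probe, 17 probes in all, and all 10 passed the filter on dim probes. That filter kept a gene when Feature Extraction flagged its probe as well above background throughout the complete arrays of 1 group or of both. Of the 10 genes, 9 had that flag on all complete arrays, and *Ankrd1* passed through its level in IG27 cells alone.

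RNA was compared between WT cells, which are OS3 cells with an empty vector (3 dishes), and IG27 cells, which are OS3 cells that received a pcDNA3.1(+) plasmid with *H3f3a* carrying the K27M change (3 dishes). OS3 is a glial line from the brain of newborn male C3H mice (C3H/HeN in the methods) that was immortalized with SV40, so both groups carry that immortalization, and both were taken after 2 days of culture. Clones were selected by drug after lipofection, and whether the 3 IG27 dishes came from 1 clone is not given in the sources used here, so effects of the plasmid and of clonal selection cannot be told apart. The dishes are the replicates, and p-values measure the spread between dishes of these lines. RNA from every dish was read in the Cy3 channel on its own Agilent mouse array, and the 6 arrays shared 1 slide. Row 2 of the slide held all IG27 arrays and WT replicate 2, and row 1 held WT replicates 1 and 3, so the groups were not balanced over the rows.

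In the Hippo pathway, the MST kinases with their partner SAV1 activate the LATS kinases with their partners of the MOB1 family, and LATS kinases phosphorylate the coactivators YAP (*Yap1*) and TAZ (*Wwtr1*). Phosphorylated YAP and TAZ are held in the cytoplasm or degraded, whereas unphosphorylated YAP and TAZ enter the nucleus and bind the TEAD factors, which bring them to DNA. Much of this control acts on proteins, which arrays do not measure. In the brain, YAP is known from neural stem cells and astrocytes.

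Among the 10 genes, *Ankrd1* and *Amotl2* are well known as targets of YAP and TEAD, and *Lats2* is both a target and an inhibitor of YAP. Their promoter windows are printed because their signals moved in opposite directions, and that of *Lats1* because it is the paralog of *Lats2*. Each window runs 5′ to 3′ on the strand of the gene, from 250 bases before a start site to 50 bases after it (RefSeq, GRCm38.p6). Capitals mark GGAATG or its reverse complement CATTCC, the core of the site that TEAD factors bind.
*Ankrd1*, chr19:36119795-36120094, minus strand: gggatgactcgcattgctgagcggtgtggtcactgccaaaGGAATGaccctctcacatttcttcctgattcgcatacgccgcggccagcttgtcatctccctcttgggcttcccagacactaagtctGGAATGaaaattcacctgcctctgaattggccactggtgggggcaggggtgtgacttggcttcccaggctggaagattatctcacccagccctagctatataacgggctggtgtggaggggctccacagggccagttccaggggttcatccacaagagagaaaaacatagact
*Amotl2*, chr9:102717554-102717853, plus strand: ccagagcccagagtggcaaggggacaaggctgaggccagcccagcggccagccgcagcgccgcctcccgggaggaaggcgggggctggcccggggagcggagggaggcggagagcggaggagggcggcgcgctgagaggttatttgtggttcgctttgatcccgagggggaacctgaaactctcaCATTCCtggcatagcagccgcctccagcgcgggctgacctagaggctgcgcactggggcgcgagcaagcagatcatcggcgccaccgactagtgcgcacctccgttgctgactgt
*Lats2*, chr14:57746074-57746373, minus strand: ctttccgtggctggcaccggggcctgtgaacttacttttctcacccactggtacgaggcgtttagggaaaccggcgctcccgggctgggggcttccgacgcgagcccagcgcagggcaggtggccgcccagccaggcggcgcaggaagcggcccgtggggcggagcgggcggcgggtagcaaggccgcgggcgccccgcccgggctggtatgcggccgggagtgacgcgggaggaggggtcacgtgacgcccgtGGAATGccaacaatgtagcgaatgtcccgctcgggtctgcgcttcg
*Lats1*, chr10:7680959-7681258, plus strand: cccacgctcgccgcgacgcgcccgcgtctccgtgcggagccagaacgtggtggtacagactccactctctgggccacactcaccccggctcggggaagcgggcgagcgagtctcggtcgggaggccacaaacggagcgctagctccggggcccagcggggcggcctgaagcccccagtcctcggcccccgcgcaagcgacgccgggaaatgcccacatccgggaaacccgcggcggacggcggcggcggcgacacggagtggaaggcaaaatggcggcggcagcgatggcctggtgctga
The core stood 210 and 123 bases before the start site of *Ankrd1* and 65 bases before that of *Amotl2*. In the printed window of *Lats2* it lay just after the start site. A window at another start of *Lats2* (chr14:57734369-57734668) did not hold it. The window of *Lats1* did not hold these letters. RefSeq windows matched 8 of the 10 genes, and *Tead1* and *Tead4* had no entry. The core was in at least 1 window of 6 of the 8 genes (*Yap1*, *Wwtr1*, *Tead3*, *Lats2*, *Amotl2* and *Ankrd1*) and in 8 of their 12 windows, of which the 2 of *Wwtr1* overlap and share 1 site. Over all genes it was in 16.6% of genes and in 4817 of 32851 windows (14.7%), and among the other targets of YAP and TAZ listed below in 4 of 12 genes. No other motif was searched, and a match describes the letters and not a bound site.

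Of the 10 genes, 3 had a higher signal in IG27 cells (*Ankrd1*, *Lats1* and *Wwtr1*), 6 were lower (*Tead4*, *Lats2*, *Amotl2*, *Yap1*, *Tead2* and *Tead1*), and *Tead3* did not pass the threshold (limma, adjusted p under 0.05). Most genes on these arrays differed between the lines. Of 14898 genes tested, 70.5% were called, 30.5% higher and 40.0% lower, so 9 calls of 10 genes stand beside a high background. With the filter that requires signal well above background on all complete arrays of both groups, which leaves out *Ankrd1*, 2 were higher and 6 lower, beside 70.8% of 13532 genes called. With a p of at most 0.05, the threshold in the methods of the study, taken without adjustment, the same 3 higher and 6 lower were counted, beside 72.9% of all genes. The signals of the groups did not overlap for 9 of the 10 genes and for 75.7% of all genes tested. The median log2 fold change of the 10 genes was -0.31, and that of all genes was -0.07. Their median absolute log2 fold change was 0.85, against 0.47 for all genes. By fitted values, 3 of the 10 changed at least 2-fold (*Ankrd1*, *Tead4* and *Lats2*), beside 3445 of the 14898 genes tested. Of these, *Ankrd1* had to differ, since it passed the filter through IG27 cells alone. Values below are log2 of the processed intensity less the 75th percentile of each array, so 0 is the level of that percentile and negative values lie below it. Levels of different genes are not ranked, since probes differ in how brightly they bind. Where paralogs are set against each other, only the shift of their difference between the groups is read, not its sign. Sums over marker lists share this limit.

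**Figure D1:**
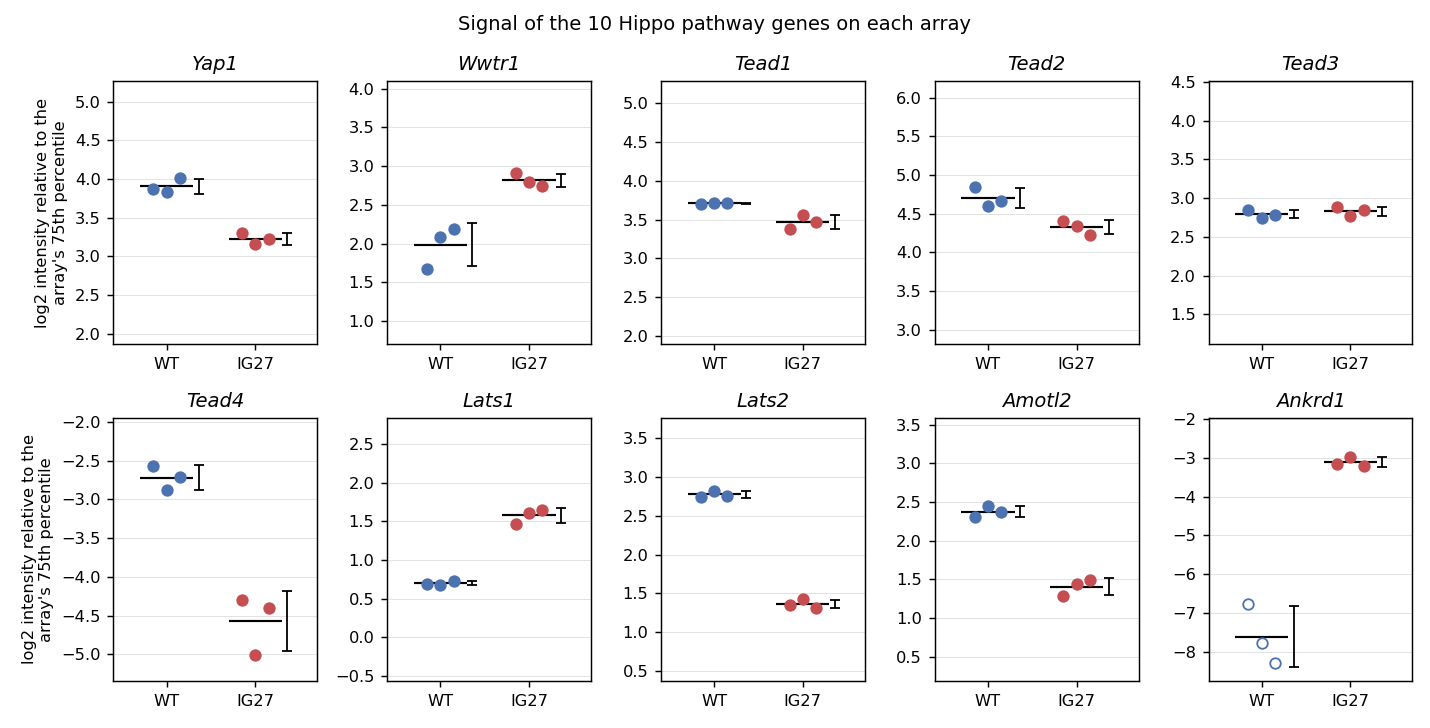
Log2 intensity relative to the 75th percentile of the array for the brightest probe of each of the 10 genes in 3 WT (blue) and 3 IG27 (red) dishes. Lines are means, bars are ± SD (n = 3), and open points are not well above background (IG27 replicate 2 has no such flag and is drawn like the other IG27 arrays). The vertical axes span the same range at different positions, except the wider axis of *Ankrd1*, and the groups overlap only for *Tead3*.

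The LATS kinases moved in opposite directions. *Lats1*, a kinase that phosphorylates YAP and TAZ, read 0.69, 0.68 and 0.73 in WT replicates 1 to 3 and 1.47, 1.61 and 1.65 in IG27 replicates 1 to 3. All IG27 arrays lay above all WT arrays, and the log2 fold change was 0.88 ± 0.06 (SE, n = 3 and 3), 1.84-fold higher in IG27 cells (limma, adjusted p = 3.69e-05). Its second probe gave a log2 fold change of 0.83. *Lats2*, the paralog with the same role, read 2.74, 2.83 and 2.76 in WT cells and 1.35, 1.42 and 1.31 in IG27 cells. Here all IG27 arrays lay below all WT arrays, with a log2 fold change of -1.42 ± 0.05, 2.67-fold lower in IG27 cells (limma, adjusted p = 2.53e-06). The other probes of *Lats2* gave -1.65 and -0.998. Within an array, the log2 level of *Lats1* less that of *Lats2* was -2.08 ± 0.06 (SD) in WT cells and 0.22 ± 0.11 in IG27 cells. This difference shifted by 2.29, and the groups did not overlap (two-sided exact permutation p = 0.1, the smallest that 3 against 3 allows; 0.114 after Benjamini-Hochberg adjustment over 8 pairs of paralogs).

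The coactivators also moved apart. *Yap1* read 3.88, 3.83 and 4.01 in WT cells and 3.30, 3.16 and 3.22 in IG27 cells. The groups did not overlap, and *Yap1* was lower in IG27 cells by a log2 fold change of -0.68 ± 0.07, 1.60-fold (limma, adjusted p = 1.97e-04). *Wwtr1*, which encodes TAZ, read 1.67, 2.09 and 2.19 in WT cells and 2.91, 2.80 and 2.74 in IG27 cells. All IG27 arrays lay above the WT arrays, of which replicate 1 was the lowest, and the log2 fold change was 0.83 ± 0.14, 1.78-fold (limma, adjusted p = 2.19e-03). The log2 level of *Yap1* less that of *Wwtr1* within an array was 1.92 ± 0.25 (SD) in WT cells and 0.41 ± 0.07 in IG27 cells, a shift of -1.51 (exact permutation p = 0.1, 0.114 after adjustment). Each of these genes had 1 probe.

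*Yap1* and *Amotl2* lie on chromosome 9, where the 813 genes tested had a median log2 fold change of -0.64 and 81.7% were below 0. The fold change of *Yap1* was near that median, and 46.9% of the genes on the chromosome had a lower one. Less the median fold change of the chromosome, *Yap1* was at -0.04 and *Amotl2* at -0.33. Each array was also centered on the median log2 level of the genes tested on each chromosome, which is not that median fold change. The log2 fold change of *Yap1* was then -0.13 (limma, adjusted p = 0.100), so its call was lost. *Amotl2* was still called after this centering, at -0.42 (limma, adjusted p = 3.76e-03). The copy number of the chromosomes was not measured here, and its part in these results was not tested. Of the 10 genes, *Amotl2*, *Tead3* and *Yap1* were inside the middle 50% of the fold changes of their chromosome. The list of other pathway genes described below holds 5 more genes on chromosome 9. *Rassf1*, *Limd1*, *Rbms3* and *Amotl1* were lower, and *Nt5e* was higher.

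**Figure D2:**
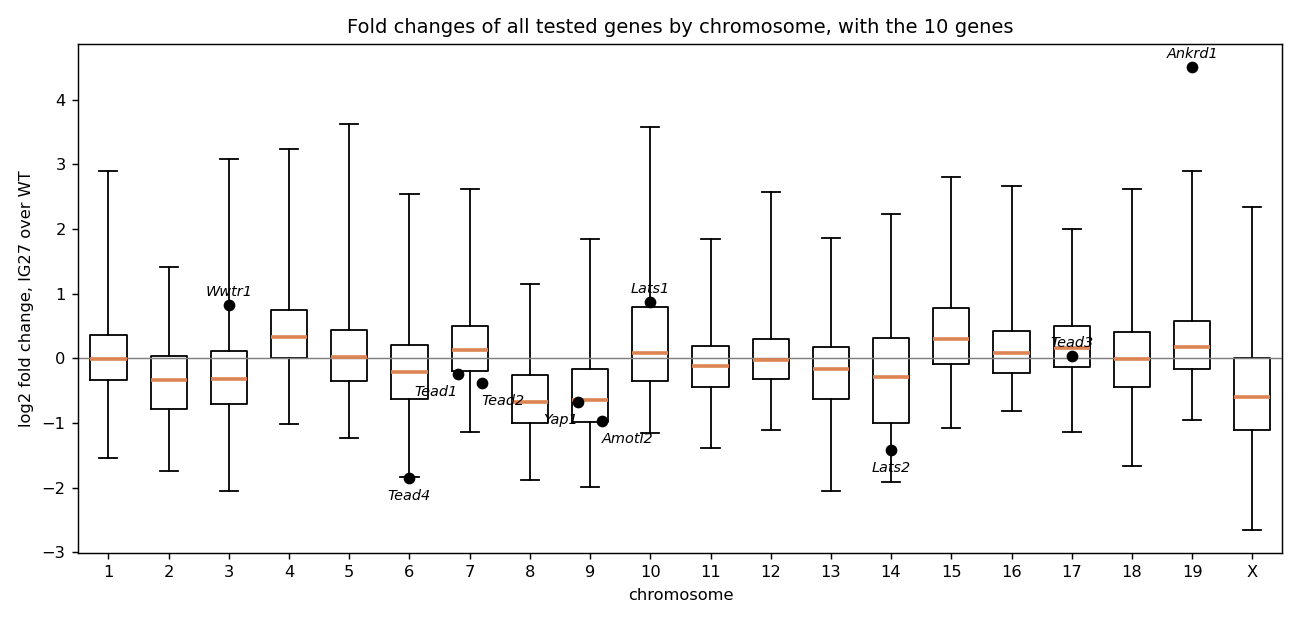
Log2 fold change (IG27 over WT) of all tested genes by chromosome, with the 10 genes as labeled points. Boxes span the 25th to the 75th percentile, whiskers the 5th to the 95th, and orange lines are medians. *Yap1* sits near the median of chromosome 9 (-0.64), *Tead3* and *Amotl2* are also inside their boxes, and the other genes lie outside.

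The TEAD factors, which bind DNA and recruit YAP or TAZ, differed in how far they moved. *Tead4* read -2.57, -2.88 and -2.71 in WT cells and -4.30, -5.01 and -4.40 in IG27 cells, so every IG27 array was below every WT array. Its log2 fold change was -1.85 ± 0.20, 3.60-fold lower in IG27 cells (limma, adjusted p = 2.72e-04). This probe is dim, and with normexp background correction and quantile normalization, run together on the 5 complete arrays (without IG27 replicate 2), the fold change was -1.05. That setting adds an offset of 50 to the signals, which by itself draws fold changes of dim probes toward 0. The second probe of *Tead4*, at least 1.33-fold lower, lacked the flag for signal above background in the IG27 arrays. For such probes, the bound sets the mean of the brighter group against the lowest signal well above background on the arrays of the other group, or the signal of the probe itself where that was higher.

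*Tead2* read 4.85, 4.61 and 4.66 in WT cells and 4.40, 4.34 and 4.23 in IG27 cells. Its groups did not overlap, and the log2 fold change was -0.38 ± 0.08 (limma, adjusted p = 6.71e-03), with -0.31 from its other probe. *Tead1* read 3.70, 3.71 and 3.71 in WT cells and 3.38, 3.56 and 3.47 in IG27 cells. The log2 fold change was -0.24 ± 0.06 (limma, adjusted p = 0.0117), its other probes gave -0.22 and 0.00, and the mean of the probes gave -0.15. The calls of both genes depended on the settings. *Tead1* was not called after quantile normalization (-0.08, limma, adjusted p = 0.345) or in that combined normexp and quantile setting (-0.16, limma, adjusted p = 0.0519), and *Tead2* was not called in the combined setting (-0.14, limma, adjusted p = 0.0875). With slide row as a block, which leaves WT replicate 2 as the control in the row of the IG27 arrays, *Tead1* (-0.24, limma, adjusted p = 0.0729) and *Tead2* (-0.28, limma, adjusted p = 0.0824) were not called either. Centering each array on the median level of each chromosome, described above, moved *Tead1* to -0.56 and *Tead2* to -0.70, both called. Less the median fold change of chromosome 7 (0.13), they were at -0.37 and -0.51.

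*Tead3* read 2.85, 2.74 and 2.79 in WT cells and 2.88, 2.77 and 2.85 in IG27 cells, and the groups overlapped. The log2 fold change was 0.04 ± 0.06 with a 95% interval from -0.10 to 0.18 (limma, adjusted p = 0.562). *Tead3* was called higher after quantile normalization (0.19, limma, adjusted p = 0.0167) and in the combined setting (0.19, limma, adjusted p = 0.0161), so a small rise depends on the scaling. Set against each other within arrays, *Tead4* fell relative to *Tead1*, *Tead2* and *Tead3*. The log2 level of *Tead3* less that of *Tead4* was 5.51 ± 0.10 (SD) in WT cells and 7.40 ± 0.33 in IG27 cells, a shift of 1.89. The shifts against *Tead1* and *Tead2* were 1.61 and 1.47. Against *Tead3*, *Tead1* shifted by -0.28 and *Tead2* by -0.42, and each of these 5 shifts had an exact permutation p of 0.1 (0.114 after adjustment), the smallest that 3 against 3 allows. *Tead1* less *Tead2* shifted by 0.14 (exact permutation p = 0.3).

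**Figure D3:**
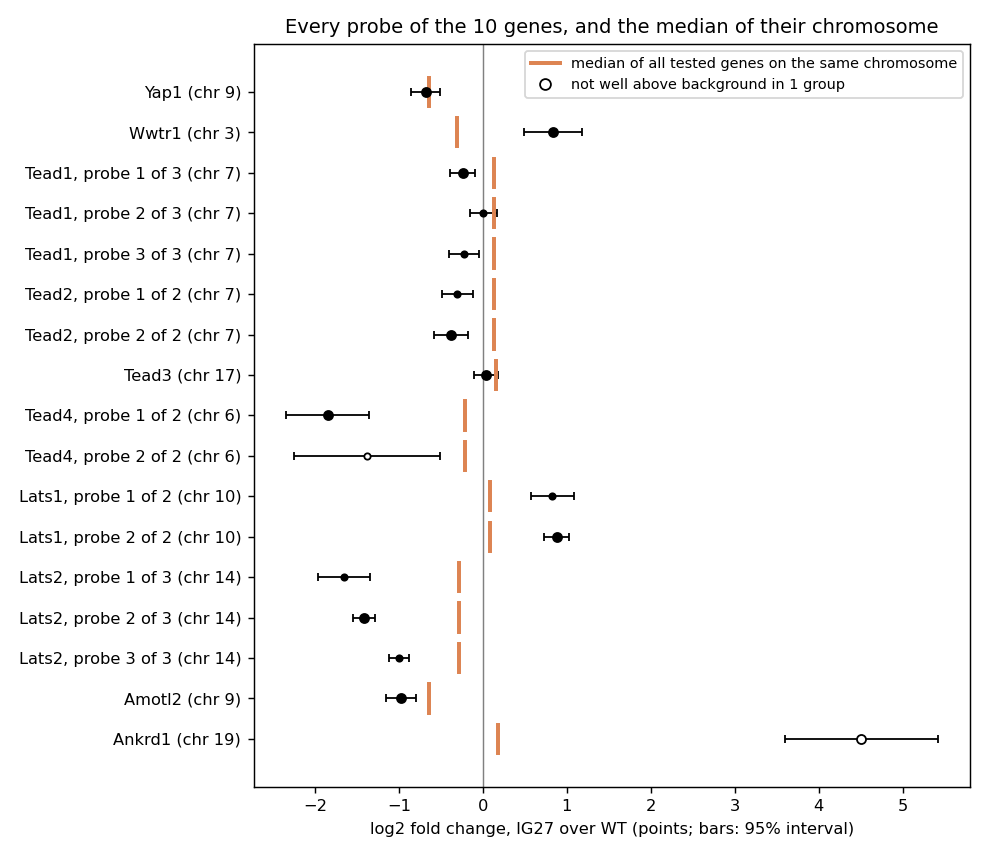
Log2 fold change (IG27 over WT, horizontal axis) of each of the 17 probes of the 10 genes with 95% intervals from limma. Larger points are the brightest probe of the gene, open points were not well above background in 1 group, so their plotted value is no measure of size, and orange marks are the median of all genes tested on the same chromosome. All probes of *Lats2* lie below 0 and both of *Lats1* above it, and the interval of *Yap1* covers the median of chromosome 9.

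The targets of YAP and TEAD among the 10 genes went opposite ways. *Ankrd1*, which encodes a muscle ankyrin repeat protein and is often used as a readout of YAP activity, read -6.76, -7.77 and -8.30 in WT cells, where no array was well above background. In IG27 cells it read -3.16, -2.96 and -3.19, well above background on both complete arrays. It was at least 6.34-fold higher in IG27 cells (limma, adjusted p = 7.88e-05). A gene that passes the filter through 1 group alone has to differ, so this p adds no support. With normexp correction and quantile normalization on the 5 complete arrays, its fitted log2 fold change was 1.30, which is less than that bound. Here too the offset of 50 draws the value toward 0. *Amotl2*, a member of the angiomotin family that binds YAP and holds it outside the nucleus, read 2.31, 2.45 and 2.37 in WT cells and 1.28, 1.44 and 1.49 in IG27 cells. The groups did not overlap, and *Amotl2* was lower by a log2 fold change of -0.97 ± 0.07, 1.96-fold (limma, adjusted p = 4.93e-05). So of the 3 genes whose printed promoters hold the core, *Ankrd1* was higher and *Amotl2* and *Lats2* were lower.

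The other genes of the pathway, from a list of 53 written from textbook knowledge, moved in both directions. Of 49 tested, 12 were higher in IG27 cells, 24 were lower and 13 did not pass the threshold, and their median log2 fold change was -0.18. Called genes made up 73.5% of this list, near the 70.5% of all genes. *Amot*, *Vgll1*, *Vgll2* and *Foxf2* did not pass the filter on dim probes.

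Of 5 genes of the core kinase cassette, *Sav1*, the scaffold of the MST kinases, was lower (log2 fold change -0.71 ± 0.05; limma, adjusted p = 5.48e-05), as was *Stk3*, which encodes the kinase MST2 (-0.18 ± 0.05; limma, adjusted p = 0.0171). *Mob1b*, a partner of the LATS kinases, was higher (0.57 ± 0.08; limma, adjusted p = 6.78e-04). *Stk4*, which encodes MST1, was at -0.07 by its brightest probe (95% interval -0.23 to 0.09). *Mob1a* was at 0.01 (95% interval -0.20 to 0.23), and neither passed the threshold. The dimmer probe of *Stk4* gave 0.23 (95% interval 0.08 to 0.38), so its probes differed. Among 11 upstream activators, 8 were lower, 1 was higher and 2 did not pass, with a median of -0.57, beside 40.0% lower and 30.5% higher among all genes; whether this group differs from the others was not tested. The largest changes were in *Fat4*, a giant cadherin (-2.25 ± 0.08), and in *Wwc1* and *Wwc2*, which encode KIBRA and its paralog (-1.29 ± 0.06 and -1.28 ± 0.06). The median of all genes tested was -0.12 on chromosome 11, which holds *Wwc1*, and -0.67 on chromosome 8, which holds *Wwc2*. *Nf2*, which encodes Merlin, was lower by its brightest probe (-0.71 ± 0.10; limma, adjusted p = 7.42e-04), and its 2 dimmer probes gave -0.05 and -0.26. *Map4k4*, *Taok2* and *Taok3* were also counted as lower by their brightest probes (-0.57, -0.53 and -0.26). Their dimmer probes gave -0.05, -0.18 and 0.21, each with a 95% interval that included 0. *Taok1*, which did not pass, gave -0.32 by its dimmer probe. The median of this group is the value of *Map4k4* by its brightest probe.

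The STRIPAK genes, whose phosphatase complex restrains the MST kinases, were lower in 3 of 6 and higher in 1, between *Slmap* at -0.61 and *Strn4* at 0.27. Of 7 genes listed as binders of YAP and TAZ or as genes for their breakdown, 3 were lower, 1 was higher and 3 did not pass. This list also took in LIM proteins, which act on the LATS kinases. Called genes made up 66.7% of the STRIPAK genes and 57.1% of the genes for binders and breakdown, beside 70.5% of all genes tested. *Ajuba*, a LIM protein that binds and restrains LATS kinases, read 3.02, 2.90 and 3.06 in WT cells and -0.15, -0.05 and 0.04 in IG27 cells, and its log2 fold change was -3.05 ± 0.07 (limma, adjusted p = 4.07e-07). *Limd1*, of the same LIM family, was lower (-1.15 ± 0.08), and *Csnk1e*, a casein kinase, was higher (0.75 ± 0.05). *Vgll3*, a TEAD cofactor, was higher (0.16 ± 0.05; limma, adjusted p = 0.0259).

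Of 18 other targets of YAP and TAZ, 7 were higher, 8 were lower and 3 did not pass, with a median of 0.04. Called genes made up 83.3% of these targets, beside 70.5% of all genes tested. The matricellular genes, both standard readouts, were higher. *Ccn2* (also *Ctgf*) read -1.80, -1.95 and -1.95 in WT cells and 0.60, 0.62 and 0.61 in IG27 cells, 5.71-fold higher (limma, adjusted p = 3.71e-07). *Ccn1* (also *Cyr61*) read 4.84, 5.05 and 4.97 in WT cells and 5.21, 5.28 and 5.41 in IG27 cells, 1.27-fold higher (limma, adjusted p = 9.20e-03). Their groups did not overlap. *Crim1* and *Nt5e*, which lacked that flag on all WT arrays, were at least 16.5-fold and at least 9.19-fold higher. *Ccdc80* was lower, from 4.63, 4.36 and 4.44 in WT cells to -1.08, -1.21 and -1.30 in IG27 cells, and its log2 fold change was -5.68 ± 0.09 (limma, adjusted p = 1.33e-07). As a set, the targets thus did not move one way. *Ccn1* and *Ccn2* stood with the 7 higher targets, beside the 8 lower ones. *Ankrd1*, *Crim1* and *Nt5e* passed the filter through IG27 cells alone, so they had to be higher. *Crim1* and *Nt5e* are counted among the 7 higher targets and the 12 higher genes of the whole list, and they raise the median of 0.04.

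**Figure D4:**
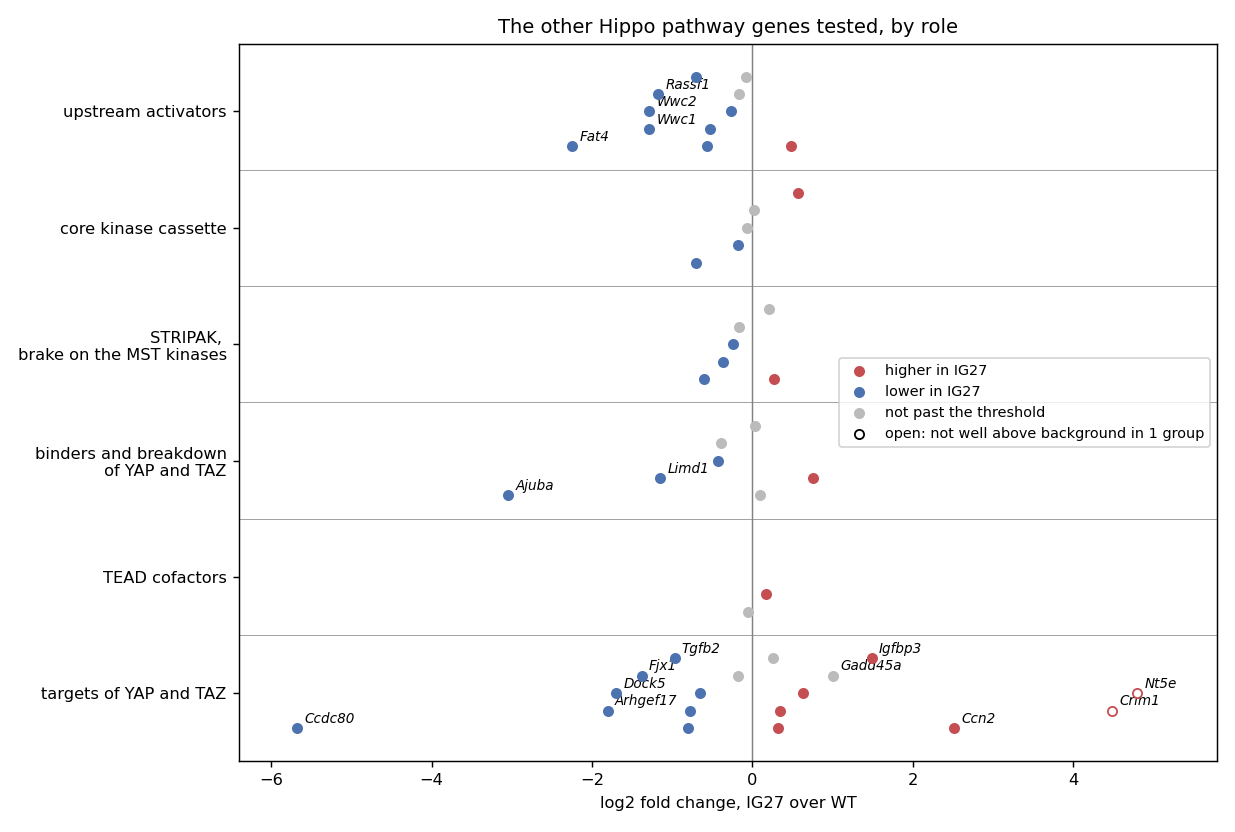
Log2 fold change (IG27 over WT, horizontal axis) of the 49 other pathway genes tested, by role; vertical offsets within a role only separate the points. Red genes were higher, blue genes lower and grey genes not past the threshold of limma, and the fitted values of open points are no measure of size. Every role has points on both sides of 0, and the targets run from *Ccdc80* at -5.68 to *Nt5e*. The role of binders and breakdown also holds the LIM proteins *Ajuba* and *Limd1*, which act on the LATS kinases.

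Markers of glia and other cells also moved, in both directions. Of 5 astrocyte markers tested, *S100b* was 30.5-fold higher in IG27 cells. *Slc1a3*, without a WT array well above background, was at least 20.6-fold higher. *Gfap* by its brightest probe (-1.07) and *Aldh1l1* (-1.72) were lower on the log2 scale. The other probe of *Gfap*, also bright, gave 0.19. Of 6 glial progenitor markers, *Pdgfra* (2.36), *Olig2* (1.51) and *Olig1* (1.48) were higher and *Nes* (-0.49) and *Sox10* (-0.37) lower. Of the markers tested, 3 of 4 for microglia were higher and 1 lower (*Csf1r*), 1 of 3 for neurons was lower (*Tubb3*), 1 of 2 for endothelium was higher (*Kdr*) and 1 lower (*Pecam1*), and 1 of 4 for fibroblasts and mural cells was higher (*Dcn*) and 3 lower. These counts rest on the brightest probe of each gene and stand beside the 70.5% of all genes called. *Acta2*, counted as lower at -0.51, was higher by its other probes (1.12 and 0.34). *Cdh5*, *Tek*, the microglia marker *Cx3cr1*, the neuron marker *Rbfox3* and the fibroblast marker *Lum* were not well above background on any complete array.

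The summed linear signal of each marker list, relative to the 75th percentile, follows its brightest probes and not the number of markers that moved. For astrocytes it ran from 95.4 to 105.2 in WT cells and from 54.8 to 63.1 in IG27 cells. The brightest probe of *Gfap* made up 99.2% of this sum in WT cells. For progenitors it ran from 94.1 to 98.0 and from 83.1 to 84.3, and *Sox10* made up 57.1% of it in WT cells. It ran from 148.8 to 152.3 in WT and from 80.0 to 85.2 in IG27 cells for fibroblasts and mural cells, and from 18.4 to 20.7 and from 7.58 to 8.36 for neurons. For microglia the ranges were 12 to 12.5 and 12.3 to 12.7, and for endothelium 0.168 to 0.190 and 2.60 to 2.67, of which *Kdr* made up 94.2% in IG27 cells. Fewer cells of a kind and less RNA per cell cannot be told apart in such bulk RNA, and the part of these markers in the results above was not tested. The 3 probes of *H3f3a* differed by -0.26, -0.20 and 0.17 on the log2 scale (IG27 less WT), and whether they read RNA from the plasmid is not given in the sources used here, so they do not check the labels.

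Across the 6 arrays, the tested genes with the pattern most like that of *Ankrd1*, by Euclidean distance of log2 levels less the WT mean, were *AI504432*, *Arhgef4* and *Slitrk6*. *AI504432* and *Slitrk6*, like *Ankrd1*, were not above background in WT cells, so their distances rest on background signal and are not given. Those most like *Tead4*, the largest fall among the 10 genes, were *Gpc1* (0.251), *Il3ra* (0.342) and *Tbc1d4* (0.381). With 6 arrays in 2 groups, such likeness follows mostly from the size of the group difference.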

How the data were processed

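RNA of 3 WT and 3 IG27 dishes was hybridized to 1-color Agilent SurePrint G3 Mouse GE 8x60K arrays. The authors read spot intensity with Agilent Feature Extraction (version 9.1 per the labels and 10.7.3.1 per the file headers), and the deposited processed signal is a linear intensity. The scanner output of IG27 replicate 2 holds 285 of 62976 spots, so its values came from the deposited value table, whose column equaled all 255 single-spot probes present (relative tolerance 1e-04). It carries no background flags. The table exchanges WT replicates 2 and 3 with respect to the scanner output, whose labels were used.

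Outlier spots, at most 210 of a complete array, were dropped. Values were log2 of the signal less the 75th percentile of each array. Of 56605 probes, 33289 to 34623 were well above background per complete array, and precision is limited by having 6 arrays. Of the probes, 32994 were named through RefSeq (GRCm38.p6), and genes used their brightest tested probe. Pearson r ran from 0.994 to 0.997 within groups and from 0.902 to 0.905 between them.

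Groups were compared over all genes with limma 3.58.1 (R 4.3.3; lmFit, eBayes, two-sided, Benjamini-Hochberg). Paralogs were compared with an exact permutation test. The steps were tested on simulated data. The members and lists were chosen with earlier results of these data known. Named were all 10 genes, *Stk3*, *Stk4*, *Sav1*, *Mob1a*, *Mob1b*, *Nf2*, *Ccn1* and *Ccn2*, the 3 called genes per role with the largest change whose groups did not overlap, and the 3 genes most like the largest rise and fall; the other genes on chromosome 9 and the markers were named after their values were seen.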

Additional observations from a re-analysis of the deposited data

How the results depend on the processing

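Under the alternatives (the value table for every array, quantile normalization, normexp with an offset of 50 and quantile normalization on the 5 complete arrays, no filter or a stricter one, outlier spots kept, the mean of the probes, eBayes with trend, blocks, chromosome centering and each array left out), 2 to 4 of the 10 genes were called higher and 4 to 6 lower. Beside these counts, the share of all genes tested that was called ran from 44.6% without the filter on dim probes to 72.6% with quantile normalization. *Wwtr1*, *Tead4*, *Lats1*, *Lats2*, *Amotl2* and *Ankrd1* kept their direction and call in every alternative that could test them, and *Yap1* lost its call only with chromosome centering. *Tead3* changed sign with that centering (-0.0835). Leaving out each array in turn gave 3 higher and 6 lower each time, and a median log2 fold change from -0.34 to -0.28. Of all genes, 65.8% to 68.1% were called in these runs. IG27 replicate 2 left out is also the alternative with complete arrays only, and the normexp alternative left it out too.

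The labels number the dishes 1 to 3 in both groups, but same-numbered dishes did not deviate together (r of 0.01, 0.04 and 0.08), so the numbers pair nothing. With the replicate number as a block, 3 of the 10 genes were higher and 6 lower, with a median of -0.31, and 11 and 23 of the other pathway genes, against 12 and 24. Of all genes, 69.2% were called in that setting. With slide row as a block, *Yap1* (-0.60), *Wwtr1* (0.73), *Tead4* (-1.68), *Lats1* (0.89), *Lats2* (-1.47) and *Amotl2* (-1.04) were still called, beside 60% of all genes. Dim signal limits *Ankrd1* and *Tead4*. In the combined normexp and quantile alternative the fitted log2 fold change of *Ankrd1* was 1.30, and for *Tead4* it was -1.05. The offset of 50 in that alternative by itself draws such dim probes toward 0.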

Other observations

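WT replicate 1 stood apart from the other WT dishes in some pathway genes, chosen after their values were seen. *Wwtr1* was 1.67 there against 2.09 and 2.19, and without that array its log2 fold change was 0.68 (limma, adjusted p = 7.29e-04). *Gadd45a*, a target of YAP, was -1.71 there against -0.19 and -0.12, and *Csnk1d*, a casein kinase, was 3.88 against 4.86 and 4.96. Neither passed the threshold between the lines (limma, adjusted p = 0.0753 and 0.257).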
